A study of Mus musculus with 24 samples.

Results

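The genes described here are the nuclear genes of oxidative phosphorylation, the 5 protein complexes of the inner mitochondrial membrane that carry electrons to oxygen and make ATP. Members were taken by symbol: names that begin with Ndufa, Ndufb, Ndufc, Ndufs or Ndufv (complex I), Sdha to Sdhd (complex II), Uqcr (complex III), Cox4i, Cox5, Cox6, Cox7 or Cox8 (complex IV) and Atp5 (complex V), without the assembly factors named Ndufaf and without pseudogenes. The rule used no measured value. It found 85 of the 24421 genes in the deposited table: 38 of complex I, 4 of complex II, 8 of complex III, 18 of complex IV and 17 of complex V. They were measured in sorted intestinal epithelium of C57BL/6 mice aged 8 to 14 weeks, gated on a Villin-driven tomato reporter and on the absence of the leukocyte marker CD45. Colon and ileum of the same 12 mice gave 24 libraries. KO early held 4 mice taken 2 weeks after chimerism, KO late 3 mice at 8 weeks, and WT irradiated 2 mice at 8 weeks, while the 3 WT non-irradiated mice had no treatment. No irradiated WT mice were taken at 2 weeks, so genotype and time since chimerism cannot be told apart between KO early and WT irradiated. The series title speaks of macrophages lacking IL-10Rα, and the sample labels say only KO. In a bone marrow chimera the blood-derived cells carry the donor genotype while the sorted epithelium keeps that of the host, so no gene in these libraries checks the deletion.

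In textbook terms, complex I passes electrons from NADH to ubiquinone, complex II does so from succinate, complex III hands them on to cytochrome c, and complex IV reduces oxygen. The proton gradient built by complexes I, III and IV drives complex V, the ATP synthase. Apart from complex II, each complex also holds subunits encoded in mitochondrial DNA, which were not analysed here. In the gut, mature absorptive cells of the small intestine and butyrate-burning colonocytes are known for heavy use of this pathway.

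Libraries held 8.32 to 18.7 M reads on genes, of which the ribosomal RNA locus Rn45s took 0.0642 to 29.4%. The deposited values, called normalised reads below, are read numbers scaled library by library, and 1 read was worth 0.698 to 2.22 of them. Epcam, an epithelial surface protein, stood at 12262.3 to 25829.6 normalised reads in colon and 17256.3 to 35668.2 in ileum. Hoxb13, a factor of the distal gut, was at 224.2 to 1394.7 in colon and 0.8 to 16.4 in ileum, and Fabp6, the ileal bile acid binding protein, at 28.5 to 485 in colon and 11905.7 to 43599.9 in ileum, so the tissue labels matched these markers in every library. The summed level of 14 leukocyte markers was 333.7 to 954.2 in colon and 647.4 to 917.3 in ileum, with Ptprc (CD45) at 156.7 to 472.2. Genes of olfactory and vomeronasal receptors, which belong to sensory neurons and serve here as a measure of background reads, took 167 to 1050 reads per M. The OXPHOS genes together took 0.488 to 1.05% of the reads of a library. In bulk libraries, fewer cells of a type and less RNA per cell cannot be told apart.

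Of the 85 genes, 81 were tested, the condition being a level of 10 normalised reads or more in 2 libraries or more. The 4 that did not pass are paralogs known mainly from other tissues: Ndufa4l2 lay between 0 and 10.8 normalised reads, Cox8b between 0 and 7.6, Cox6a2 between 0 and 4.2, and Cox8c between 0 and 2.5. Mean levels over the 24 libraries had a median of 343.34 normalised reads in complex I, 1600.3 in complex II, 1106.5 in complex III, 491.04 in complex IV and 667.43 in complex V. These medians mix genes of different length. The highest member of each complex by this mean was Ndufs1, the large iron-sulfur subunit of complex I, with 1886.33 normalised reads (1295.8 to 2858.5 over libraries). For complex II it was Sdha, the flavoprotein that oxidises succinate, with 3795.26 (2076 to 5488.8). Uqcrc2, a core protein, led complex III with 3280.22 (2098.8 to 5166.3), and Cox4i1, an early-assembling subunit, led complex IV with 2750.32 (908 to 5446.7). Atp5b, the catalytic beta subunit, led complex V with 12511.6 (7044.3 to 19904.6). Per kilobase of transcript, the mean level of Atp5b was 6530 normalised reads, above 3643 for Cox4i1, 1730 for Uqcrc2, 1309 for Sdha and 709 for Ndufs1.

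Where complex IV and complex V have alternative isoforms, 1 form took most of the summed level per kilobase. The median share over the 12 libraries of a tissue was 99.5% in colon and 99.3% in ileum for Cox4i1 over the hypoxia-linked isoform Cox4i2, and 100.0% and 99.9% for Cox6a1 over the muscle isoform Cox6a2. Cox8a held 99.7% and 99.4% among the Cox8 genes, and Ndufa4 99.5% and 99.8% over Ndufa4l2. Among the c-ring genes of ATP synthase, Atp5g3 held 95.9% in colon and 96.1% in ileum, Atp5g2 3.38% and 3.00%, and Atp5g1 0.905% and 0.823%. The mean level of Atp5g1 and of Atp5g2 was 71.2 normalised reads. The gap between their shares comes from the transcript lengths used, 2655 and 731 bases. The Cox7a family was split: Cox7a2, the broadly expressed form, held 74.1% in colon and 62.4% in ileum, the heart and muscle form Cox7a1 held 13.3% and 22.5%, and Cox7a2l, a factor of supercomplex assembly, held 13.4% and 14.1%. Cox6b2, known as the testis isoform, held 0.408% in colon and 2.47% in ileum against Cox6b1. Close paralogs can share reads, so the minor shares are uncertain.

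Promoters of 4 members whose colon and ileum levels are described further on are printed to show the start regions of genes that differed in opposite directions. Ndufa6 was higher in colon, and Ndufa4, Sdha and Uqcrc1 were higher in ileum. Each is 300 bases, from 250 before to 50 after the annotated start, read 5′ to 3′ on the gene's strand, from RefSeq on GRCm38.p6, which is not the mm9 build of the deposited values. Capitals mark matches to GCGCA, any 1 base, then GCGC, the core motif of NRF1, a transcription factor known for driving respiratory chain genes, searched on both strands. The windows are chr15:82354242-82354541 on the minus strand for Ndufa6, chr6:11907401-11907700 on the minus strand for Ndufa4, chr13:74350191-74350490 on the minus strand for Sdha and chr9:108936398-108936697 on the plus strand for Uqcrc1.
Ndufa6: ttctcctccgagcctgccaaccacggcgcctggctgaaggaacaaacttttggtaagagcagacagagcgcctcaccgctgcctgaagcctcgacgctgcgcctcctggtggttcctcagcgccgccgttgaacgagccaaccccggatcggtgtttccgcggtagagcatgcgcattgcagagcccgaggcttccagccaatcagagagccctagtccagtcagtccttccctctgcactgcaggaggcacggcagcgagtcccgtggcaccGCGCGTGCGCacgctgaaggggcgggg
Ndufa4: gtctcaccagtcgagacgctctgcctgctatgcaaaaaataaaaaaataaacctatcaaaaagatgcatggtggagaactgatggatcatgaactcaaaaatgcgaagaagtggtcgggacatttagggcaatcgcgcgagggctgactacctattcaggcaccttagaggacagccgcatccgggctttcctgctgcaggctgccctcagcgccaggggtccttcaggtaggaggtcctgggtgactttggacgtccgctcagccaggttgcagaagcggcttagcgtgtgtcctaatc
Sdha: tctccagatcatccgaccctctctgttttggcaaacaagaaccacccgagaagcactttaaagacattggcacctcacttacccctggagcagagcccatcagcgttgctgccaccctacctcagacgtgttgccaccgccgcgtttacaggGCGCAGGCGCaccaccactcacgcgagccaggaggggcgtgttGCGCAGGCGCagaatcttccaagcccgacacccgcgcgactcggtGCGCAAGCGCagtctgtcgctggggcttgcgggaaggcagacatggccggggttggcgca
Uqcrc1: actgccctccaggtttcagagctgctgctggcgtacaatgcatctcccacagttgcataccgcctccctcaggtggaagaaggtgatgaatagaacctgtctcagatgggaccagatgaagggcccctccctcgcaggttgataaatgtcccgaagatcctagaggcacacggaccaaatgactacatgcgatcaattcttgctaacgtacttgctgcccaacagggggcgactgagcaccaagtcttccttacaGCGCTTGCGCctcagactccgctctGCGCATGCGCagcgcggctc
Sdha held 3 matches, Uqcrc1 2, Ndufa6 1 and Ndufa4 none. RefSeq had 76 such windows for 70 of the 85 members. The NRF1 motif stood in 23.7% of them, against 4.60% of all 32851 windows and 6.38% of the 21263 windows of coding genes. AAGATGGC, the motif of YY1, was in 15.8% of member windows and 2.75% of all windows, and CCGGAAGT, an ETS motif, in 6.58% and 3.89%. TCAAGGTCA, the motif of estrogen-related receptors, was in 2.63% and 0.423%, and CAAAGTCCA, for HNF4A, in none and 0.475%. All were searched on both strands. A match is a description of these letters and not of a bound site.

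Most members moved up and down together from library to library. The median log2 level of the members in a library ran from 8.22 to 9.65. Over the 75 members whose mean reached 100 normalised reads, Pearson's r with that median was 0.91 in the median member in colon (range -0.09 to 0.99) and 0.85 in ileum (0.42 to 0.98). Each r is a description over 12 libraries that share their size factor and their composition. Subtracting the member median from each library lowered the median SD of a member from 0.432 to 0.278 in colon and from 0.430 to 0.245 in ileum, on the log2 scale. Members that did not follow the rest in colon were Ndufab1, the mitochondrial acyl carrier protein (r = -0.09), Atp5s, a coupling factor (-0.08), Cox7c, a small structural subunit (-0.02), and Atp5l, subunit g of ATP synthase (0.02). Ndufa11 and Ndufb7, accessory subunits of complex I, had the largest SD in colon (1.37 and 1.3).

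**Figure D1:**
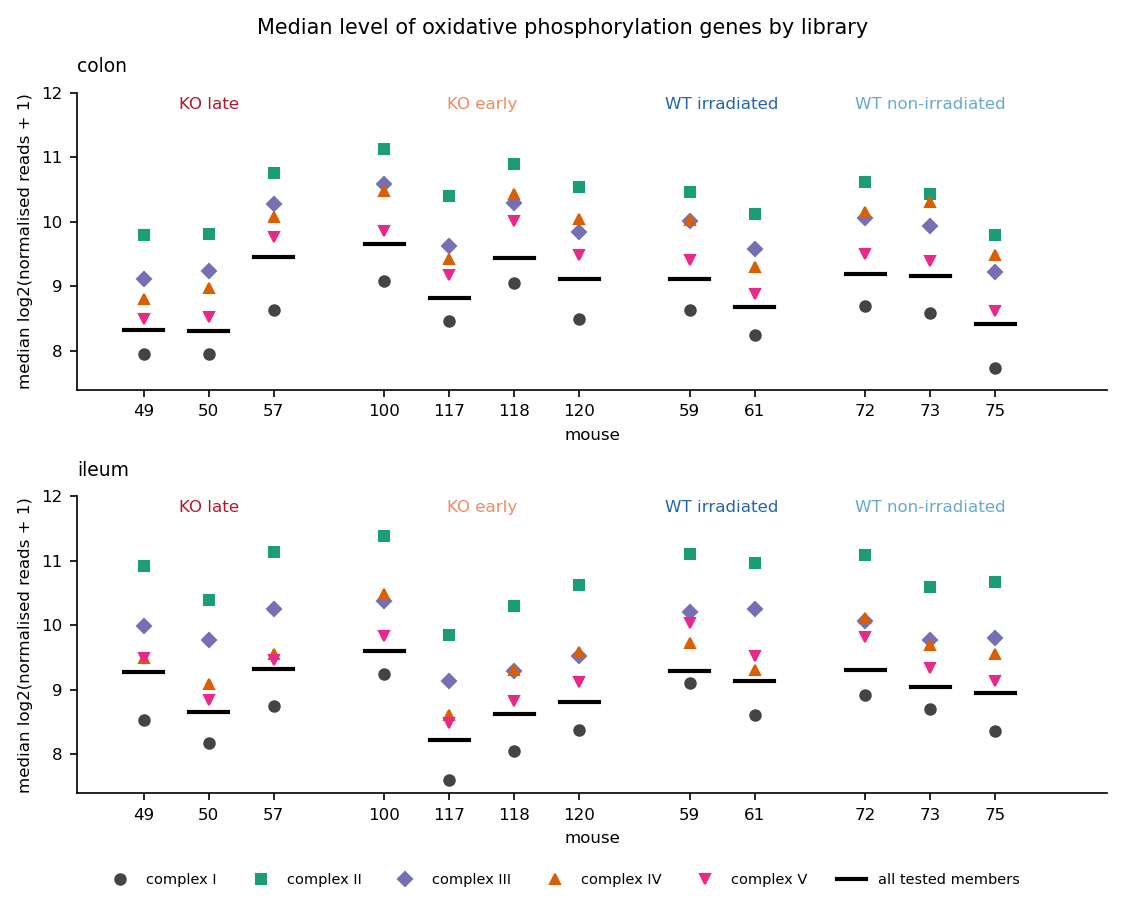
Median log2 level of the members of each complex in every library (y axis, log2 of normalised reads plus 1), by group and tissue, with a bar for the median over all 81 tested members, which ran from 8.22 to 9.65. The 5 complexes shift together within a library, and within KO late colon the member median runs from 8.31 to 9.45.

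The libraries with low member medians in colon were 2 of KO late, mouse 50 (8.31) and mouse 49 (8.32), and mouse 75 of WT non-irradiated (8.41). The highest colon medians were those of KO early mouse 100 (9.65), KO late mouse 57 (9.45) and KO early mouse 118 (9.44). In ileum the lowest were KO early mice 117 (8.22) and 118 (8.62) and KO late mouse 50 (8.65), and the highest was KO early mouse 100 (9.61). Receptor reads were 1030 and 1050 per M in the colon of KO late mice 50 and 49, 682 in that of mouse 75 and 711 in the ileum of mouse 117, against 429 in the colon and 277 in the ileum of mouse 100. KO late mouse 57 had 752 receptor reads per M with a high member median. The leukocyte marker sum was 472.5 to 954.2 in KO late colon, 477.3 to 667.1 in KO early colon and 364.7 to 598.5 in WT irradiated colon.

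**Figure D2:**
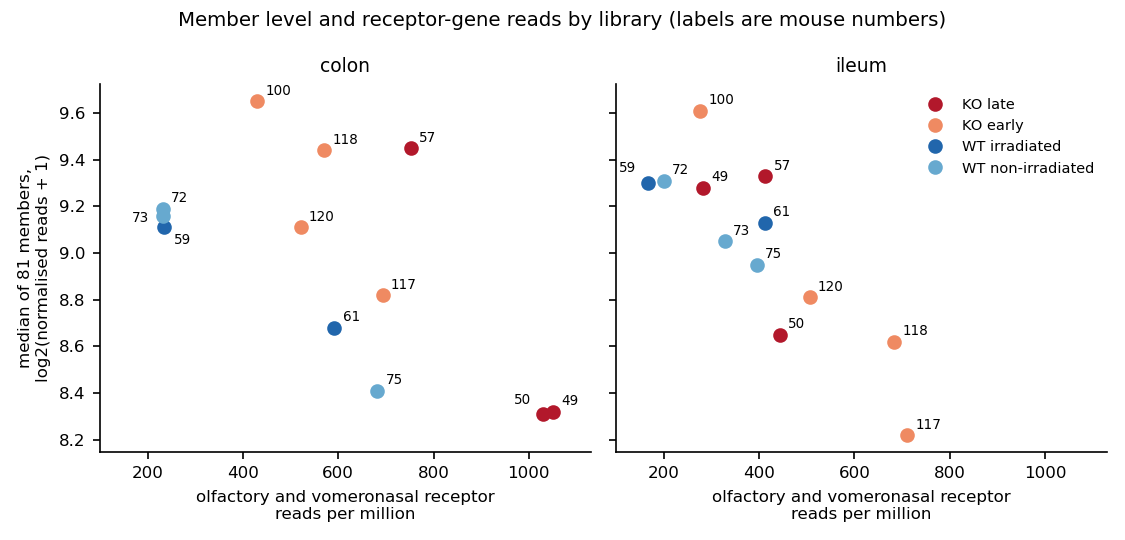
Median log2 level of the 81 tested members in each library (y axis) against reads per M on olfactory and vomeronasal receptor genes (x axis), in colon and ileum, each point 1 library labelled by its mouse. The colon libraries of KO late mice 49 and 50 lie at 1050 and 1030 receptor reads per M with medians of 8.32 and 8.31.

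Colon was compared with ileum, as the mean of the differences in the 4 groups, to ask which OXPHOS genes set the tissues apart. In limma with Benjamini-Hochberg adjustment over 19588 genes, 2 members were higher in colon and 13 were lower. Those are 2.47% and 16% of the 81 members, below the 15% of all tested genes called higher and near the 18.5% called lower. The median log2 difference of the members was -0.24 (colon minus ileum, on log2 of the value plus 1), with 19 above 0 and 62 below, beside -0.08 for all expressed genes. By complex the median was -0.23 in I, -0.45 in II, -0.19 in III, 0.07 in IV and -0.33 in V, and none of these medians changed sign with reads per M, equal medians, edgeR or DESeq2 scaling. With the mouse as a block, since both tissues came from each animal, 2 members were higher and 27 lower, against 18.3% and 22.7% of all genes. Scaling to reads per M with Rn45s removed, called reads per M below, moved the median of all genes by 0.14 towards colon. It then gave 9 higher and 9 lower members, beside 17.8% and 12.9% of all genes, with a member median of -0.09.

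**Figure D3:**
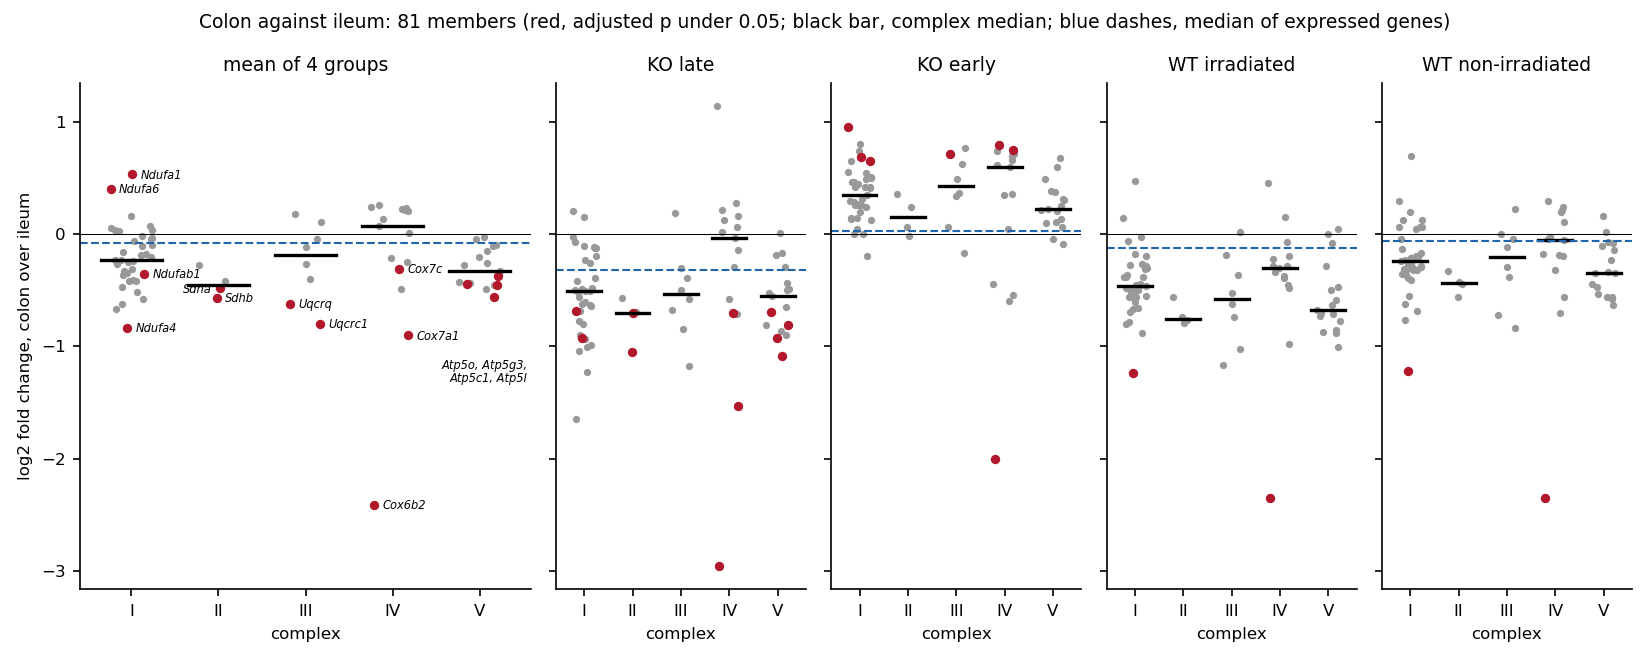
Log2 difference between colon and ileum for each member (points; positive is higher in colon), by complex, for the mean of the 4 groups and for each group. Red points passed an adjusted p of 0.05 in limma, black bars are complex medians and blue dashes the median of expressed genes; the complex medians of the mean of 4 groups are -0.23, -0.45, -0.19, 0.07 and -0.33, and under reads per M the member median is -0.09.

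In complex I, Ndufa6, an accessory subunit of the matrix arm, was at 978.6, 1317.8 and 1672.1 normalised reads in colon (lowest, median and highest of 12 libraries) and at 566.8, 999.05 and 1123.3 in ileum. It was higher in colon in 11 of 12 mice (log2 difference 0.40, SE 0.12, limma adjusted p = 0.00941). Ndufa1, a small membrane subunit encoded on the X chromosome, was also higher in colon in 11 of 12 mice, at 183.2, 365.55 and 581 against 144, 261.35 and 341.4 (0.53, SE 0.17, adjusted p = 0.0213). Both tissues overlapped in range for either gene. Ndufa4, named for complex I and since assigned to complex IV, was at 395.4, 657.15 and 866.9 in colon and 627.9, 1024.8 and 1656.2 in ileum. It was lower in colon in 11 of 12 mice (-0.84, SE 0.12, adjusted p = 9.74e-06). Ndufab1, the acyl carrier protein, was lower in 8 of 12 mice (-0.36, SE 0.13, adjusted p = 0.0402), and lost this call with edgeR, reads per M and equal medians. The other 33 tested members of complex I lay between -0.67 and 0.16.

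**Figure D4:**
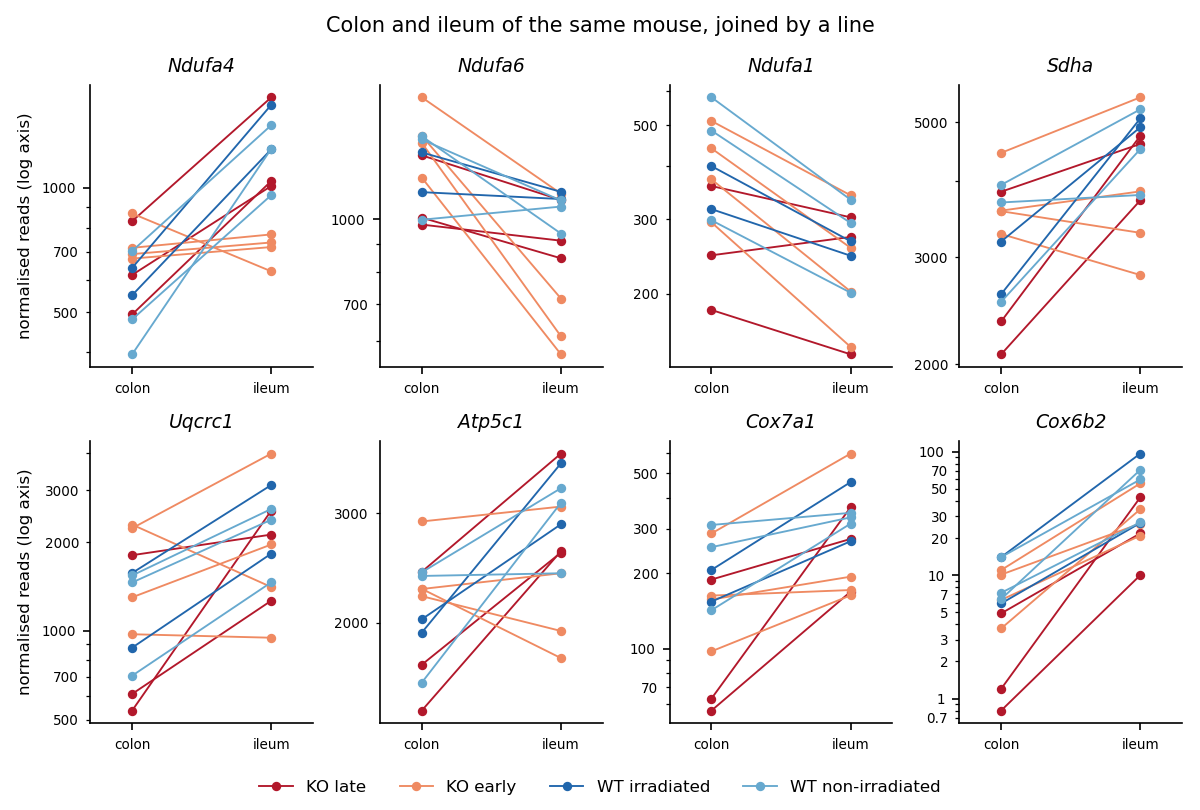
Normalised reads (log axis) of Ndufa4, Ndufa6, Ndufa1, Sdha, Uqcrc1, Atp5c1, Cox7a1 and Cox6b2 in colon and ileum, with a line joining the tissues of each of the 12 mice and colours for the 4 groups. Cox6b2 and Cox7a1 are lower in colon in 12 of 12 mice, Ndufa4 in 11 of 12, and Ndufa6 is higher in colon in 11 of 12.

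All 4 genes of complex II had negative differences. Sdha was at 2076, 3420.2 and 4448.9 in colon and 2802.5, 4556.4 and 5488.8 in ileum, lower in colon in 10 of 12 mice (-0.49, SE 0.13, limma adjusted p = 0.0059). Sdhb, the iron-sulfur subunit, was at 537.9, 1155.7 and 1911.6 in colon and 838.1, 1526.8 and 2329.9 in ileum, also lower in 10 of 12 mice (-0.57, SE 0.19, adjusted p = 0.0211). The membrane anchors did not pass. Sdhd was at 1039.9, 1669.8 and 2609.8 against 1018.9, 1982.3 and 3090.2 (-0.42, adjusted p = 0.0593, and 0.00733 with the mouse block). Sdhc was at 664.6, 1186.2 and 1931 against 635.3, 1357.6 and 2015.1 (-0.28, adjusted p = 0.293).

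In complex III, the core protein Uqcrc1 was at 537.6, 1380 and 2292.3 in colon and 948.8, 2041.8 and 3988 in ileum, lower in colon in 10 of 12 mice (-0.80, SE 0.26, limma adjusted p = 0.0187). Uqcrq, a small subunit that sits by cytochrome b, was lower in 10 of 12 mice, at 161, 271.5 and 572.5 against 204.4, 408.4 and 988.7 (-0.63, SE 0.24, adjusted p = 0.0447). The ranges overlapped for both, and Uqcrq lost its call with equal medians and without the filter. The other 6 members lay between -0.40 and 0.18. Under reads per M, 4 members of complex III stood above 0 and 4 below.

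Complex IV held the members with the largest differences, and they were tissue isoforms. Cox6b2 was at 0.8, 6.35 and 14 in colon and 10, 30.5 and 96.6 in ileum, lower in colon in 12 of 12 mice and 5.34-fold on the fitted scale (-2.42, SE 0.31, limma adjusted p = 1.41e-06). These are few reads, near the limit of what was tested in colon. Cox7a1 was at 56.6, 159.75 and 310.9 in colon and 162.9, 294.1 and 598.5 in ileum, also lower in 12 of 12 mice (-0.90, SE 0.25, adjusted p = 0.00708). Summed over 8 skeletal and smooth muscle markers, the libraries held 190.6 to 555.5 normalised reads, with Ckm at no more than 25.4 and Des at no more than 20.1. In KO late mice the sum was 464.5 to 555.5 in colon and 253.6 to 325.8 in ileum. It was 317.6 to 463.2 against 218.5 to 298.2 in WT irradiated mice. The tissues overlapped in KO early (385.3 to 443.4 against 359 to 493.7) and WT non-irradiated mice (289.1 to 517.6 against 190.6 to 291.6). The part of muscle cells in the Cox7a1 level was not tested. Cox7c was lower in 9 of 12 mice (-0.31, SE 0.12, adjusted p = 0.0445), a call lost with edgeR, reads per M, equal medians or no filter. The other 12 tested members lay between -0.49 and 0.26, and complex IV was the 1 complex with more members above 0 (9) than below (6).

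All 17 members of complex V had negative differences in the deposited scaling, while 4 were above 0 with reads per M and 2 with equal medians. Atp5c1, the gamma subunit that turns inside the catalytic head, was at 1447.3, 2237.1 and 2908.3 in colon and 1756.7, 2741.9 and 3736 in ileum, lower in 10 of 12 mice (-0.44, SE 0.12, limma adjusted p = 0.00794). Atp5o, which holds head and stalk together, was at 511.6, 941.95 and 1537.2 against 645.8, 1241.9 and 1884.3, lower in 10 of 12 mice (-0.56, SE 0.19, adjusted p = 0.0255). Atp5g3, the main c-ring gene here, was at 1020.6, 1812.1 and 2829.7 against 1201.3, 2390.2 and 3855.7, lower in 9 of 12 mice (-0.46, SE 0.16, adjusted p = 0.0328). The ranges of colon and ileum overlapped for each. Atp5l was lower in 9 of 12 mice (-0.38, SE 0.13, adjusted p = 0.0296). Atp5g3 lost its call with reads per M, and Atp5l with reads per M or equal medians. The other 13 lay between -0.49 and -0.02, among them Atp5a1 and Atp5b, the catalytic head subunits, which passed with the mouse block (adjusted p = 0.0159 and 0.0228).

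Of the 15 calls, 10 held under all 10 alternatives run on all mice: Ndufa1, Ndufa6, Ndufa4, Cox6b2, Cox7a1, Uqcrc1, Atp5o, Atp5c1, Sdhb and Sdha. Ndufa4, Cox6b2, Cox7a1 and Sdha also held with each mouse left out in turn. Single mice decided the count: it was 5 without WT irradiated mouse 61, 7 without WT irradiated mouse 59, 9 without KO late mouse 49 or WT non-irradiated mouse 75, and 19 without KO early mouse 117.

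The tissue difference was then taken within each group. In WT non-irradiated mice 2 members were lower in colon and none higher (6.39% and 8.27% of all genes), and in WT irradiated mice also 2 lower and none higher (5.26% and 4.87%). In both they were Ndufa4 and Cox6b2. Ndufa4 was at 703.3, 480.4 and 395.4 normalised reads in the colon and 1418.1, 960.3 and 1243 in the ileum of the WT non-irradiated mice (log2 difference -1.22, limma adjusted p = 0.000774). In the WT irradiated mice it was at 549.8 and 640.1 against 1239.6 and 1588.5 (-1.24, adjusted p = 0.0064), and neither group overlapped between tissues. Cox6b2 was at 6.4, 14 and 7.2 in colon and 71.3, 59.6 and 26.8 in ileum of WT non-irradiated mice (-2.36, adjusted p = 0.00833), and at 14 and 5.9 against 96.6 and 26.5 in WT irradiated mice (-2.35, adjusted p = 0.0462). The member medians were -0.24 in WT non-irradiated and -0.48 in WT irradiated mice, beside -0.06 and -0.12 for expressed genes. Colon lay below ileum without overlap in 50 members (61.7%) in the 2 WT irradiated mice, beside 23.5% of all genes, and above it in 1, beside 21.1%. In WT non-irradiated mice it lay below in 10 (12.3%), beside 11% of genes, and above in none, beside 12.6%. With the mouse block WT irradiated had 4 calls, adding Atp5g3 (-1.01) and Atp5o (-0.88), and WT non-irradiated 3, adding Ndufa1 (0.70). Leaving out either WT irradiated mouse left no call in that group, with the lone mouse assumed to vary like the other groups, and leaving out WT non-irradiated mouse 72 left 1 in its group.

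In KO late mice 11 members were lower in colon and none higher, against 17% and 11.1% of all genes. The 11 are 13.6% of the members, below that background. Atp5sl, which encodes a complex I assembly factor and is a member by its prefix only, was at 73.1, 69.9 and 76.9 in colon and 184.2, 145.1 and 143.4 in ileum (-1.09, limma adjusted p = 0.0112). Ndufa4 was at 615.6, 493.8 and 830.5 against 1010.6, 1038.9 and 1656.2 (-0.93, adjusted p = 0.00737). In both genes the tissues did not overlap. Cox6b2 (-2.96), Cox7a1 (-1.54), Sdhb (-1.05), Atp5g2 (-0.92), Atp5l (-0.81), Cox7c (-0.71), Sdha (-0.70), Ndufs3 (-0.69) and Atp5c1 (-0.69) were the other called members. The member median was -0.52 beside -0.32 for expressed genes. Colon lay below ileum without overlap in 11 members, beside 24.4% of genes, and above it in 1, beside 25.1%. With the mouse block 1 member was higher and 31 lower (24.5% and 24.7% of all genes). Without the block, the 11 calls became 1 without mouse 50, 4 without mouse 49 and 7 without mouse 57. Receptor reads were 752 to 1050 per M in KO late colon and 282 to 443 in KO late ileum. The sum of 8 muscle markers was 464.5 to 555.5 against 253.6 to 325.8 normalised reads. That of 10 stroma and vessel markers was 394.5 to 744.4 against 292.2 to 360.4. None of these overlapped between the tissues, and their part in the difference was not tested.

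In KO early mice 6 members were higher in colon and 1 lower, against 7.73% and 6.43% of all genes. The 6 are 7.41% of the members, near the background. Ndufa6 was at 1672.1, 1192.4, 1380.3 and 1422.3 in the colon of mice 100, 117, 118 and 120 and at 1115, 566.8, 611.6 and 716.9 in their ileum, without overlap (0.95, limma adjusted p = 0.000993), and it passed with each KO early mouse left out. Cox7b, a small subunit of complex IV, was higher in colon by 0.79 (adjusted p = 0.0214), Cox6c by 0.75 (0.0291), Uqcrb by 0.71 (0.0245), Ndufa5 by 0.69 (0.0321) and Ndufv2, an iron-sulfur subunit of the NADH-binding module, by 0.65 (0.0398). Cox6b2 was lower (-2.0, adjusted p = 0.0098). The member median was 0.34 beside 0.02 for expressed genes, with 71 members above 0. Colon lay above ileum without overlap in 5 members (6.17%), beside 9.85% of genes, and below it in 1, beside 9.14%. With the mouse block 17 were higher and 1 lower (9.99% and 8.08% of all genes). With reads per M 28 members were higher and 1 lower, beside 11.3% and 5.77% of genes. In the deposited scaling without the block, where all mice gave 7 calls, leaving out mouse 117, 118, 120 or 100 gave 1, 2, 4 or 8.

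Mouse by mouse, the median of the members' differences between colon and ileum was 0.63 in mouse 117 and 0.82 in mouse 118, with 74 and 72 of 81 members higher in colon. It was 0.11 in mouse 120 and -0.05 in mouse 100, and expressed genes in these 4 mice had medians of -0.04, 0.04, 0.09 and -0.04. In the KO late mice it was -0.64, -0.45 and -0.21, beside -0.31, -0.28 and -0.20 for expressed genes, so mouse 57 was at its background. In the WT irradiated mice it was -0.36 and -0.60, beside -0.03 and -0.20, and in the WT non-irradiated mice -0.18, -0.01 and -0.53, beside -0.05, 0.14 and -0.21. Every mouse above 0 was thus of KO early, and mice 117 and 118 were also those with the lowest ileum medians.

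Whether the tissue difference itself differed between groups was tested as an interaction. For KO early against WT irradiated, 78 of 81 members had a larger colon minus ileum difference in KO early, with a median of 0.85 beside 0.17 for expressed genes. KO early was at 2 weeks and WT irradiated at 8 weeks, so genotype and time cannot be told apart. No member passed in limma, where 0.0306% of all genes were called higher and 0.0102% lower, and none passed with edgeR, DESeq2 or the mouse block (0.199% and 0.123% of genes). At an unadjusted p under 0.05 there were 25 members, all higher, which is 30.9% of members beside 6.06% of genes (3.82% lower). Ndufa4 had the smallest p (1.28, SE 0.36, limma adjusted p = 0.307). It passed when both WT groups served as controls (adjusted p = 0.045). For KO late against WT irradiated the median was 0.01 beside -0.15, with 42 members above 0 and 39 below. None passed in limma (0.143% and 0.0459% of genes), with the mouse block (0.403% and 0.26%), in edgeR or in DESeq2, and 1, on the lower side, had an unadjusted p under 0.05 in limma (2.46% of genes higher, 3.04% lower).

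KO late was also set against KO early in the same way, a comparison added after the data had been seen. In 79 of 81 members the colon minus ileum difference was lower in KO late, with a median of -0.83 beside -0.34 for expressed genes. No member passed in limma, against 0.424% of genes higher and 2.08% lower, while 27 had an unadjusted p under 0.05, 26 of them lower (32.1% of members, beside 15% of genes lower and 16.1% higher). Atp5sl had the smallest p (-1.29, SE 0.40, adjusted p = 0.0706). DESeq2 called 5 members, Atp5sl (-1.30), Ndufb5 (-1.0), Ndufa4 (-0.98), Ndufb4 (-0.92) and Cox7a2l (-0.91), all lower, beside 4.09% of genes higher and 6.83% lower, and edgeR none. With the mouse block limma called 37 lower and 1 higher (12.9% and 15.7% of genes), with 23 of complex I, 3 of II, 4 of III, 3 of IV and 5 of V. Cox7b2, a minor isoform in these libraries, was the 1 higher (1.59, adjusted p = 0.0102). That count fell to 8 with reads per M (1.18% of genes higher, 3.14% lower) and 13 with equal medians (18.8% and 7.63%), and to 8 without KO early mouse 117, KO late mouse 49 or KO late mouse 50. It was 11 without mouse 118 and 53 without mouse 100. Cox7b2 was at 168.5 and 159.1 normalised reads in the colon libraries with the most receptor reads (1050 and 1030 per M). It was at 37, 37.3 and 42 in those with the fewest (232, 233 and 234), and the part of background reads in its level was not tested.

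Within colon, no member passed in limma in any of the 4 comparisons, whose fits covered 19145 genes. KO late against WT irradiated had a member median of -0.16, beside -0.17 for expressed genes, with 24 members above 0 and 57 below. In that comparison 0.642% of all genes were called higher and 0.387% lower, and 1 member had an unadjusted p under 0.05 on the higher side and 3 on the lower, beside 7.32% and 9.13% of genes. Both groups stood apart without overlap in 5 higher and 8 lower members, beside 16.7% and 18.5% of all genes, so the members' 6.17% and 9.88% were below the background. edgeR called none and DESeq2 1, on the lower side (1.79% of genes higher, 2.39% lower). The member median was -0.41 without KO late mouse 57, -0.02 without mouse 50, and 0.47 in the model with the receptor reads. The median of complex III (-0.07) turned to 0.025 with equal medians. That of complex IV (-0.02) turned to 0.08 with equal medians, 0.05 with edgeR and 0.13 with DESeq2. Receptor reads were 752 to 1050 per M in KO late and 234 to 592 in WT irradiated colon, and the sum of 8 muscle markers was 464.5 to 555.5 against 317.6 to 463.2 normalised reads, neither overlapping. The part of muscle cells in the difference was not tested.

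The 3 members with the smallest p in KO late colon were Atp5sl, Cox6b2 and Cox7b2. Atp5sl was at 73.1, 69.9 and 76.9 normalised reads in KO late, below 281.5 and 139.8 in WT irradiated and below 231.9, 237.8 and 154.3 in WT non-irradiated mice (log2 difference from WT irradiated -1.43, SE 0.35, limma adjusted p = 0.0817). The KO late mice did not overlap any other colon library. Its adjusted p ranged from 0.00374 to 0.3765 over the alternatives with all mice, and it was 0.9991 (-0.92) without WT irradiated mouse 59. It passed with DESeq2 (0.00374), with reads per M (0.0407), with WT non-irradiated (0.0274) or both WT groups (0.0125) as controls and in the fit on GC-adjusted values (0.0455), where Atp5sl itself, which has no GC value, was shifted by the median adjustment. With receptor reads in the model its difference was -0.69 (0.3765). Cox6b2 was at 1.2, 0.8 and 4.9 against 14 and 5.9 (-1.83, SE 0.67, limma adjusted p = 0.247). Cox7b2 was at 168.5, 159.1 and 123.3 against 42 and 92.9 (1.24, SE 0.54, limma adjusted p = 0.292). In the same order of mice, receptor reads were 1050, 1030 and 752 against 234 and 592 per M. Their part in the Cox7b2 level was not tested.

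KO early against WT irradiated colon had a member median of 0.39, beside -0.01 for expressed genes, with 70 members above 0 and 11 below. The groups were taken 2 and 8 weeks after chimerism, so genotype and time cannot be told apart. The complex medians were 0.36, 0.42, 0.40, 0.41 and 0.45 from I to V. None was called in limma (0.167% of genes higher, 0.0366% lower), edgeR or DESeq2. In limma 1 member, on the higher side, had an unadjusted p under 0.05, beside 2.68% of genes higher and 3.71% lower. The groups did not overlap in 28 higher members, 34.6% of the 81, beside 7.9% of all genes, and in 1 lower member, beside 9.38%. Cox7b was at 2375.4, 1792.4, 2101.2 and 1921.3 in KO early and 1280.7 and 1301.8 in WT irradiated mice (0.66, SE 0.26, limma adjusted p = 0.646). Atp5g3 was at 2709.3, 1944.6, 2800.3 and 1967.3 against 1425.5 and 1580.6 (0.63, SE 0.31, adjusted p = 0.797). Both were without overlap. Uqcrq was at 446.1, 273, 572.5 and 333.6 against 270 and 182.1 (0.81, SE 0.40, adjusted p = 0.808). Without WT irradiated mouse 61 the member median was 0.22.

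KO late against KO early colon had a member median of -0.53, beside -0.10, with 80 of 81 members below 0. The complex medians were -0.59 (37 of 37 below 0), -0.62, -0.60, -0.34 and -0.45 (17 of 17 below 0) from I to V. None was called in limma (0% of genes higher, 0.00522% lower, the lowest member adjusted p being 0.301) or edgeR, and DESeq2 called Atp5sl lower (0.449% of genes higher, 0.627% lower). At an unadjusted p under 0.05 there were 22 members, all lower, 27.2% of members beside 7.58% of genes (and 3.21% of genes higher), and the groups did not overlap in 1 higher and 4 lower members, beside 7.29% and 6.47%. Ndufa3, a small complex I subunit, was at 195.7, 217.3 and 506 in KO late and 804.5, 390, 664.9 and 486.4 in KO early (-1.02, SE 0.35, limma adjusted p = 0.403). Sdhb was at 584.7, 537.9 and 1136.2 against 1911.6, 872.9, 1513.2 and 1175.2 (-0.89, SE 0.33, adjusted p = 0.438). In both, KO late mouse 57 stood far above mice 49 and 50. For Atp5sl the same contrast was -1.16 (SE 0.30, adjusted p = 0.301). The member median was -0.82 without mouse 57 and -0.16 with receptor reads as a covariate, where receptor reads were 752 to 1050 per M in KO late and 429 to 693 in KO early colon. The muscle marker sum was 464.5 to 555.5 in KO late and 385.3 to 443.4 in KO early colon, also without overlap, and its part in the difference was not tested.

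WT irradiated against WT non-irradiated colon had a member median of -0.03, beside -0.04, and its sign turned with reads per M (0.13, where the median of all genes moved by 0.16) and with equal medians (0.03). It was -0.27 without mouse 75 and 0.12 without mouse 72. None was called in limma (0% of genes), edgeR or DESeq2, none had an unadjusted p under 0.05 in limma (0.214% of genes higher, 0.131% lower), and no member was without overlap, beside 2.29% of genes higher and 2.23% lower. The smallest p were those of Atp5j (-0.31), at 492.2 and 470.6 against 691.9, 670 and 457.2, Atp5s (0.31), at 135 and 116 against 121, 94.8 and 90, and Ndufa1 (-0.30), each with a limma adjusted p of 0.9999.

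**Figure D5:**
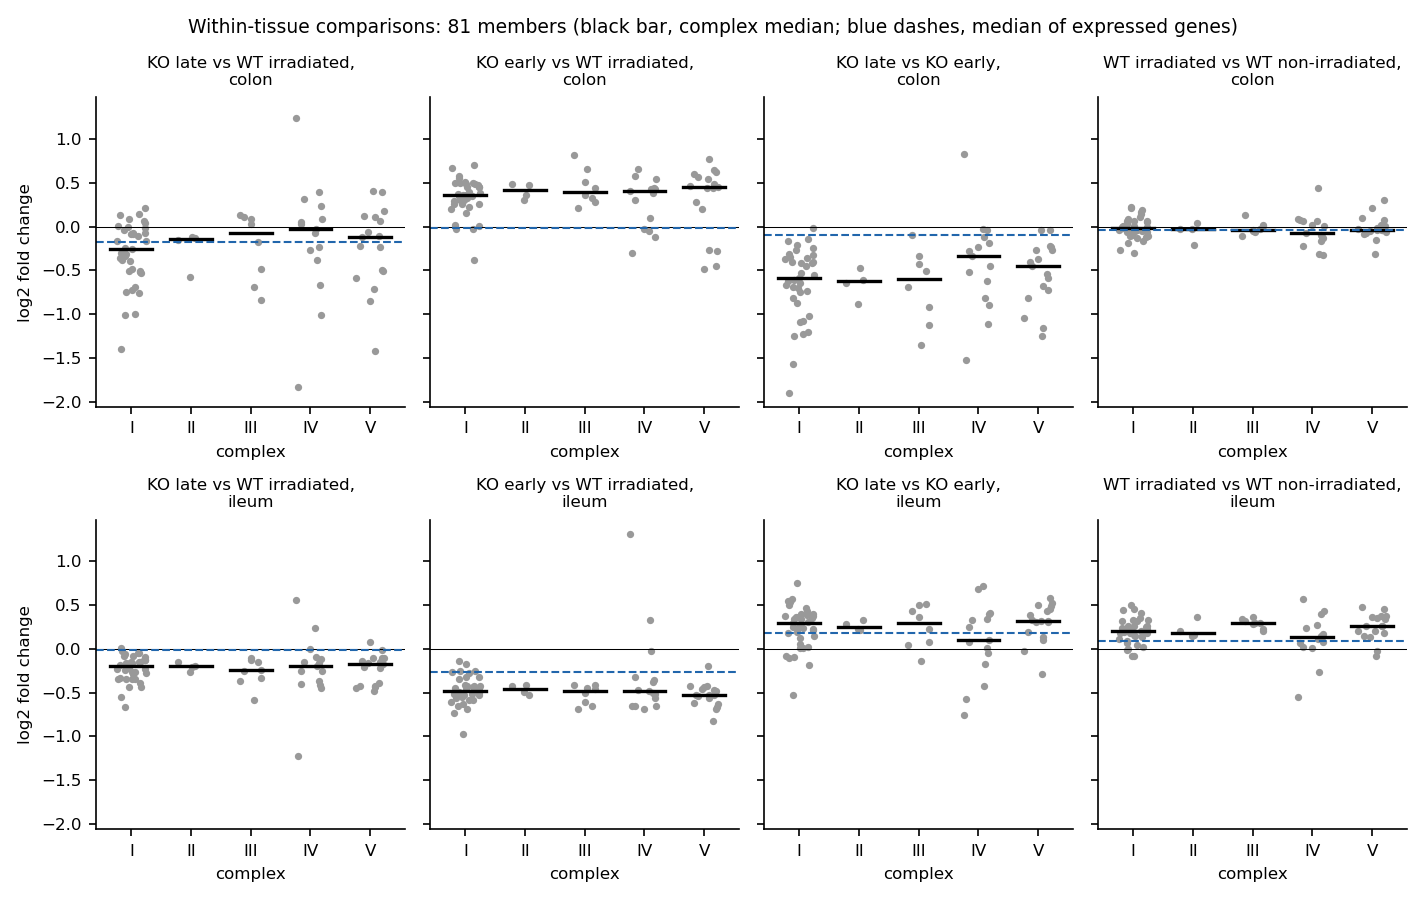
Log2 difference of each member (points) by complex in the 4 comparisons within colon and the 4 within ileum, with black bars for complex medians and blue dashes for the median of expressed genes. No point passed an adjusted p of 0.05 in limma; the member medians are -0.16, 0.39, -0.53 and -0.03 in colon and -0.20, -0.49, 0.30 and 0.22 in ileum, and the sign of -0.03 turns with reads per M.

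Within ileum, no member passed in limma either, over 19122 genes. KO late against WT irradiated had a member median of -0.20, beside -0.02, with 76 of 81 members below 0. No member was called where no gene was (0%), none had an unadjusted p under 0.05 in limma (0.46% of genes higher, 0.361% lower), and none passed with edgeR or DESeq2. The groups did not overlap in 4 lower members, 4.94% beside 3.83% of all genes, and in no higher one, beside 4.54%. The median was 0.01 with WT non-irradiated mice as controls, 0.03 with receptor reads as a covariate, -0.03 without mouse 50 and -0.36 without mouse 57. The smallest p were those of Ndufa3 (-0.44, SE 0.32), Atp5sl (-0.42) and Cox6b2 (-1.22, SE 0.66), each with a limma adjusted p of 1. Cox6b2 was at 42.7, 10 and 21.8 in KO late and 96.6 and 26.5 in WT irradiated ileum.

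KO early against WT irradiated ileum had a member median of -0.49, beside -0.27, with 79 members below 0. As in colon, genotype and time since chimerism cannot be told apart here. None passed in limma (0% of genes), edgeR or DESeq2, and 11 had an unadjusted p under 0.05 in limma, 1 higher and 10 lower (1.23% and 12.3% of members, beside 15.7% and 9.13% of genes). The groups did not overlap in 1 higher and 9 lower members, 1.23% and 11.1%, beside 15.2% and 16.9% of genes. Ndufa4 was at 771.4, 627.9, 737.5 and 719 in KO early, below 1239.6 and 1588.5 in WT irradiated and below 1418.1, 960.3 and 1243 in WT non-irradiated ileum (-0.98, SE 0.24, limma adjusted p = 0.1645). Cox7a2l was at 503.2, 313.6, 354.7 and 334 against 568.4 and 620.6 (-0.68, SE 0.22, adjusted p = 0.1645). Cox7b2 was higher in value, at 77.6, 136, 145.1 and 111.7 against 28.5 and 71.8 (1.32, SE 0.41, adjusted p = 0.1645). All 3 were without overlap. The member median was -0.74 without mouse 100, -0.30 without mouse 117 and -0.05 with receptor reads as a covariate. Receptor reads were 711, 684 and 506 per M in mice 117, 118 and 120 and 277 in mouse 100. They were 167 and 412 in the WT irradiated mice, so the groups overlapped. Cox7b2 was highest in mice 117, 118 and 120, and the part of background reads in its level was not tested. Other values stood apart between these groups without overlap: the muscle marker sum at 359 to 493.7 in KO early against 218.5 to 298.2 in WT irradiated ileum, the sum of 10 stroma and vessel markers at 372.5 to 656.9 against 225.6 to 345, and the Rn45s share of reads at 3.81 to 29.4% against 0.13 to 0.549%. The part of stromal and muscle cells in the difference was not tested.

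KO late against KO early ileum had a member median of 0.30, beside 0.18, with 68 members above 0. Limma (0% of genes) and edgeR called none. At an unadjusted p under 0.05 limma had 5 members, all higher (6.17%), beside 13.4% of genes higher and 11.1% lower. The groups did not overlap in 5 members, all higher, beside 14% and 9.29% of genes. DESeq2 called 3 higher, beside 4.05% of genes higher and 2.97% lower: Cox7a2l (adjusted p = 0.0199), Ndufa4 (0.0343) and Cox7c (0.0429). Ndufa4 was at 1010.6, 1038.9 and 1656.2 in KO late against 771.4, 627.9, 737.5 and 719 in KO early (0.76, SE 0.22, limma adjusted p = 0.0891). Cox7a2l was at 602.1, 543.4 and 642.9 against 503.2, 313.6, 354.7 and 334 (0.68, SE 0.19, adjusted p = 0.0865), and Cox7c at 137.5, 161.8 and 178.5 against 119.7, 92.8, 71.5 and 105.4 (0.72, SE 0.23, adjusted p = 0.1065). In each the groups did not overlap. The comparisons of both KO groups with WT irradiated mice share those 2 control mice. Without mouse 100 the member median was 0.54, and without mouse 117 it was 0.08. The muscle marker sum was 253.6 to 325.8 in KO late and 359 to 493.7 in KO early ileum, and the stroma and vessel sum 292.2 to 360.4 against 372.5 to 656.9, neither overlapping, and their part in the difference was not tested.

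WT irradiated against WT non-irradiated ileum had a member median of 0.22, beside 0.09, with 73 members above 0. None passed in limma (0% of genes), edgeR or DESeq2, and none had an unadjusted p under 0.05 in limma (0.397% of genes higher, 0.58% lower). The groups did not overlap in 16 higher members, 19.8% beside 5.67% of all genes, and in no lower one, beside 4.15%. Cox5b, a subunit that faces the matrix, was at 580.2 and 559.7 in WT irradiated and 417.4, 381.8 and 350.7 in WT non-irradiated ileum (0.57, SE 0.40, limma adjusted p = 1). Atp5g3 had a difference of 0.46 (SE 0.36) and Cox7b2 of -0.55 (SE 0.43), with the same adjusted p.

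The relation of the differences to the GC content of the transcripts varied between comparisons. Over the 74 members with a known GC content whose mean reached 100 normalised reads, Spearman's rho between GC content and the log2 difference was -0.71 for KO late against KO early colon, beside -0.43 over expressed genes, as a description. The 39 members under 51.7% GC had a median of -0.40 and the 35 at or above it -0.74. For KO late against WT irradiated colon rho was -0.51 beside -0.33, with medians of -0.06 and -0.39. In ileum rho was -0.59 beside -0.46 for KO late against WT irradiated and -0.57 beside -0.27 for KO late against KO early. For KO early against WT irradiated rho had the other sign, 0.27 beside 0.02 in colon and 0.32 beside 0.06 in ileum. For WT irradiated against WT non-irradiated it was -0.26 beside -0.07 in colon and -0.30 beside -0.04 in ileum.

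Other genes of energy metabolism were followed in lists for the mean colon and ileum difference, where 15% of all genes were higher in colon and 18.5% lower (18.3% and 22.7% with the mouse block). Of 45 assembly factors 4 were higher in colon and 12 lower (8.89% and 26.7%, median -0.19), with Coa7 (-1.20, limma adjusted p = 3.92e-07) and Sco2 (-1.46, 9.11e-06), both factors of complex IV assembly, having the smallest p. Of 12 genes of electron carriers, ubiquinone synthesis included, 1 was higher and 6 lower (8.33% and 50%, median -0.38), led by Coq4 (-1.59, 2.37e-07), while Cycs, cytochrome c itself, was also lower (-0.47, 0.00272). Of 20 regulators 3 were higher and 5 lower (15% and 25%, median -0.18), and those with the smallest p were higher in colon: Hif1a, the oxygen-sensing factor (1.42, 1.17e-06), and Ppargc1b, a coactivator of mitochondrial genes (1.29, 1.28e-06). Of 18 TCA cycle genes 2 were higher and 7 lower (11.1% and 38.9%, median -0.33), with Sucla2 at -1.47 (1.6e-09) and Ogdh at -1.42 (1.63e-07). With the mouse block the counts were 8 higher and 13 lower for assembly factors, 1 and 9 for electron carriers, 3 and 8 for regulators and 2 and 12 for the TCA cycle. With reads per M they were 9 and 8 for assembly factors (median -0.04), 1 and 3 for electron carriers (-0.24), 3 and 3 for regulators (-0.03) and 2 and 7 for the TCA cycle (-0.19). Of all genes, 17.8% were then higher and 12.9% lower.

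Of the glycolysis list, 7 of 18 tested genes were higher in colon and 1 was lower (38.9% and 5.56%, median 0.30). Slc2a1, the glucose transporter GLUT1, was higher by 3.28 (limma adjusted p = 3.83e-10) and Hk1, a hexokinase, by 2.90 (1.78e-12). Of 7 mitochondrial carriers 1 was higher, the porin Vdac3 (0.77, 9.83e-05), and 3 lower, led by the ADP/ATP carrier Slc25a4 (-1.22, 8.89e-05). Of 77 genes of the mitochondrial ribosome 1 was higher, Mrps6 (2.62, 2.37e-13), and 29 lower (37.7%, median -0.34), led by Mrpl15 (-1.27, 5.15e-09). Of 87 genes of the cytosolic ribosome 23 were lower and none higher (26.4% and 0%, median -0.41), led by Rps4l (-2.16, 0.00113) and Rps27l (-0.61, 0.00166). The counts of lower ribosomal genes were 42 and 46 with the mouse block and 15 and 6 with reads per M, where 12.9% of all genes were lower.

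No gene of these lists was called in limma in a comparison within a tissue or in an interaction of a KO group with WT irradiated mice. At an unadjusted p under 0.05, KO late against KO early colon had 37 of 77 mitochondrial ribosome genes lower. So were 21 of 86 cytosolic ribosome and 10 of 18 TCA cycle genes, beside 7.58% of all genes. In the interaction of KO early with WT irradiated mice 26 of 77, 32 of 87 and 7 of 18 were higher, beside 6.06%. In these lists none went the other way, and glycolysis had none in either. In the added interaction of KO late with KO early, where 2.08% of all genes were lower, 21 cytosolic ribosome genes were called lower (24.1%, median -1.38), among them Rpl22 (-1.60) and Rpl4 (-1.59), and 10 of the mitochondrial ribosome (13%, median -1.07), among them Mrps18b (-2.04) and Mrps17 (-1.67). Tfam, which packages mitochondrial DNA, was called lower (-1.55, limma adjusted p = 0.0306). So were 3 genes of the list headed assembly factors, among them Ndufaf7 (-1.35, 0.0365) and Lrpprc (-1.21, 0.0373). Also lower were 2 TCA cycle genes, Idh3b (-1.42) and Pdha1 (-1.26). Glycolysis had a median of -0.03 and no call. With reads per M no list had a call, and leaving out any mouse but KO early mouse 118 also left none. With the mouse block 56 mitochondrial (72.7%) and 66 cytosolic (75.9%) ribosome genes were lower, beside 12.9% of all genes.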

How the data were processed

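RNA of sorted epithelium was sequenced as single-end reads from a stranded total RNA kit, per the labels' protocols, although the molecule label says polyA RNA. Per the submitters' processing notes, bcl2fastq, HISAT 0.1.6 and HOMER were used with the mouse build mm9. The authors deposited 1 coverage signal per gene and library, reads divided by a size factor. The steps of the low values gave back whole reads within 0.06 normalised reads for 100% of the low values checked. Higher values were not checked in this way. The deposited factors matched median-of-ratios factors within 0.9996 to 1.0001. The use of strand in counting was not given in the sources used here. Overlapping genes are therefore uncertain. All 24 columns matched a library by name.

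The design allowed for counts. Since normalised values were held, limma 3.58.1 (R 4.3.3) with a trend was fitted on log2(value + 1), for genes with 10 or more in 2 libraries, with p-values adjusted by Benjamini-Hochberg over all of them and calls under 0.05. Comparisons within a tissue shared 1 spread over its 4 groups, and tissue differences and interactions used all 24 libraries. Non-overlap means that all values of one group lie above all of the other. Expressed genes are those with a mean of at least 100. edgeR 4.0.16 and DESeq2 1.42.0 on recovered reads, other scalings, pseudocounts, filters, controls, receptor reads as a covariate, the mouse as a block and leaving out each mouse were alternatives. GC-adjusted values (loess with a span of 0.5), combinations with the block, and the interaction of KO late with KO early were added after seeing the data. Scripts were tested on simulated data.

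Replicates were separate mice by their numbers. The chi-square between replicates was 25.5 per gene or more, and they correlated at 0.891 to 0.981. A number joins the colon and ileum of 1 mouse in the labels, which pairs them. Deviations of the paired libraries from their groups correlated at -0.59 to 0.81 across expressed genes and exceeded 0.1 in 7 of 12 mice. With only 2 mice, WT irradiated deviations mirror each other (0.81). Counting error is largest near the filter.

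The members, lists and rules were chosen with earlier results of these data known. Named were members called within a tissue or in an interaction, up to 3 called members per complex and direction for the mean tissue difference, the 3 smallest p of each other comparison, the highest member of each complex, complex II, the isoform families, and 2 called genes per other list. Members named in the tissue differences of single groups or under the block, Atp5l in the mean tissue difference, members that did not follow the rest, and the promoters shown were chosen after their values were seen.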

Additional observations from a re-analysis of the deposited data

Results flagged for a closer look

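In the 4 mice of KO early, 76 items were looked at, the named members and the member median in each tissue. Of these, 6 had 1 mouse far from the others. The rule flags about 1 in 20 for separate, normally distributed values. Members moved together within a library, so that rate is no measure of chance here. Mouse 100 was high in 4 of the 6. In its colon Atp5c1, the gamma subunit of ATP synthase, was at 2908.3 normalised reads beside 2207.6 to 2267.8 in the other mice, and Atp5sl at 248.8 beside 139.5 to 148.6. In its ileum Cox7a1, the muscle isoform, was at 598.5 beside 162.9 to 193.4, and Uqcrb, a complex III subunit, at 700.5 beside 354.7 to 375.7. In the colon of mouse 117, Cox7c was at 124.5 beside 88.6 to 92.8. Ndufa5 was lowest in the colon of mouse 120, at 410.4 beside 464.6 to 474.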

How the results depend on the processing

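No called member changed direction under any alternative. Some counts of calls have no share of all genes given, those with GC-adjusted values or left-out mice among them. Such counts show how the number of calls moved. They cannot tell a change in the members from a change in calls over all genes. Against the deposited scaling, the number of called members in colon against ileum of KO late (11) was 6 with edgeR, 6 with reads per M and 5 with equal medians. That of KO early (7) was 29 with reads per M and 13 with equal medians. That of WT irradiated (2) was 1 with reads per M, with a pseudocount of 0.5 or with no filter. Within tissues, where limma called 0, KO late against WT irradiated colon had 1 call with DESeq2, reads per M, GC-adjusted values, or either other choice of WT controls. KO late against KO early had 1 in colon and 3 in ileum with DESeq2, and 3 in ileum with receptor reads as a covariate. That covariate moved the member median to 0.47 for KO late against WT irradiated colon and to -0.048 for KO early against WT irradiated ileum. In the interactions, KO early against WT irradiated had 1 call with both WT groups as controls, and KO late against KO early 5 with DESeq2.

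The replicate block by mouse gave 29 calls for the mean of the 4 groups, 32 for KO late, 18 for KO early, 4 for WT irradiated and 38 for the interaction of KO late with KO early. With GC-adjusted values as well, the block gave 35, 27, 26, 8 and 27, 8 for WT non-irradiated, and 1 for KO early against WT irradiated in the interaction. The 38 became 8 under the block with reads per M and 13 with equal medians. The block left the other interaction counts at 0.

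Leaving out 1 mouse at a time gave 5 to 19 calls for the mean of the 4 groups (14 to 35 with the block), 1 to 7 for KO late, 1 to 8 for KO early, 0 for WT irradiated, 1 to 2 for WT non-irradiated, and 8 to 53 for the interaction of KO late with KO early with the block.

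WT irradiated held 2 mice, and member levels moved together within a library, so the 81 members are not separate observations. Depth limits Cox6b2 and the other members near the filter. Rn45s shares and receptor reads differed within groups and, in several comparisons, also between them without overlap: receptor reads were 752 to 1050 per M in KO late colon against 234 to 592 in WT irradiated and 429 to 693 in KO early colon, and Rn45s 3.81 to 29.4% in KO early ileum against 0.13 to 0.549% in WT irradiated ileum. Between the tissues of KO late mice, receptor reads were 752 to 1050 per M in colon against 282 to 443 in ileum. The receptor covariate, reads per M with Rn45s removed and GC-adjusted values each bear on these differences in part. The receptor covariate was fitted only in the comparisons within a tissue. The cause of each moved count was not tested.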
